A study of Mus musculus with 10 samples.

Results

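The 8 genes described here mark Langerhans cells and antigen presentation on MHC class II, and they were followed in regenerating mouse digit tips: Cd207, H2-Aa, H2-Ab1, H2-Eb1, Cd74, Ciita, Itgax and Flt3. They were taken by name from the 21729 gene IDs of the deposited protein-coding table, so they are 8 of 21729. The tissue was the blastema, the mass of proliferating cells under the wound epidermis from which an amputated digit tip regrows. Mutant blastemas came from ΔLARM1/2 mice, in which LARM1 and LARM2, limb enhancers of the dorsal patterning gene Lmx1b, are deleted, and wild type blastemas came from mice with both enhancers. Tissue was collected 12 days post amputation (dpa), at 33 days of age, or 14 dpa, at 35 days of age, with 3 mutant and 2 wild type libraries on each day. All mice had a mixed CD1 and C57Bl/6 background, and every library pooled 6 amputated central hindlimb digits. The design text calls the libraries biological replicates, but the labels do not tie a library to particular animals, so the p-values measure the spread between these pools. The labels name no cell type-specific driver of the deletion and no sorting of cells.

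MHC class II molecules display peptides from internalised material to CD4+ T cells. An alpha and a beta chain pair in the endoplasmic reticulum with the invariant chain, travel to an endosomal compartment, lose the invariant chain to proteases, and are loaded with peptide with the help of H2-DM. The whole set is switched on by the co-activator CIITA, which docks on an RFX and NF-Y complex bound to a short promoter module. Langerhans cells are the class II-bearing cells of the epidermis, held among keratinocytes by E-cadherin and maintained by keratinocyte IL-34 and by TGF-beta. Their C-type lectin langerin, the product of Cd207, builds Birbeck granules, and langerin is also made by a subset of dermal dendritic cells, so that neither Cd207 nor class II alone names a cell in whole tissue.

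The 10 libraries held 69998104 to 101632364 expected counts. Protein-coding genes took 90.9% to 93.7% of the counts in mutant libraries and 81.5% to 91.0% in wild type libraries. They took 42.0% to 52.8% of the deposited TPM, the RSEM level per transcript length, in mutants but 27.7% (wild type 14 dpa replicate 1) to 49.5% in wild type, so levels are compared between libraries as CPM, counts over library size with TMM scaling, and between genes of a library as TPM. Lmx1b itself was lower in every mutant library, with a log2 fold change over both days of -3.98 (SE 0.49, adjusted p = 0.000406). This held for mutant 14 dpa replicate 1 too, whose genotype tag says wild type although its title and description say mutant; its Lmx1b level was 0.234 CPM, against 2.14 and 1.69 CPM in the wild type 14 dpa libraries. It is kept with the mutants. With it placed in wild type, as its tag reads, edgeR called 0 of all genes over both days, the 8 described here included, with 5448 of all genes and 6 of the 8 at an unadjusted p under 0.05; as grouped here, 8843 genes were called. Mutant 12 dpa replicate 3 stood apart in genes shared by all leukocytes, which summed to 87.7 CPM there and to between 19.1 and 33.7 CPM in the other libraries.

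All 8 genes had more RNA in mutant than in wild type blastemas on average, and 6 of them passed the test over both days: Cd207, H2-Aa, H2-Ab1, H2-Eb1, Cd74 and Itgax. Their fold changes were between 1.69 for Itgax and 4.56 for Cd207. Ciita and Flt3 were also higher on average but did not pass. The test was edgeR's quasi-likelihood test across 20216 genes, with Benjamini-Hochberg adjusted p under 0.05, and it called 21.5% of all tested genes higher in mutants, 22.2% lower and 43.7% in either direction. The median log2 fold change was 1.08 over the 8 genes and 0.02 over all tested genes. In pooled tissue, more cells of a type and more RNA per cell cannot be told apart.

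The number of the 8 genes called fell most when a wild type library was left out. Such a fit keeps 1 library in that group, whereas a fit without a mutant library keeps 2. Calls over all tested genes also fell most without a wild type library, but in each such fit by a smaller share than among the 8 genes. Without wild type 12 dpa replicate 2 only 1 of the 8 genes passed, and without wild type 14 dpa replicate 1 only 3 passed. Without mutant 14 dpa replicate 1, the library with conflicting labels, and wild type 14 dpa replicate 1, the one with the lowest protein-coding share, edgeR called 0 of the 8 genes, with 5 at an unadjusted p under 0.05 and a median log2 fold change of 1.07. Every one of 541 log2 fold changes of the 8 genes, over the 3 genotype contrasts and all alternatives tried, was above 0. These values are refits of the same libraries, and the contrast over both days averages the other 2, so they are not independent of each other.

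**Figure D1:**
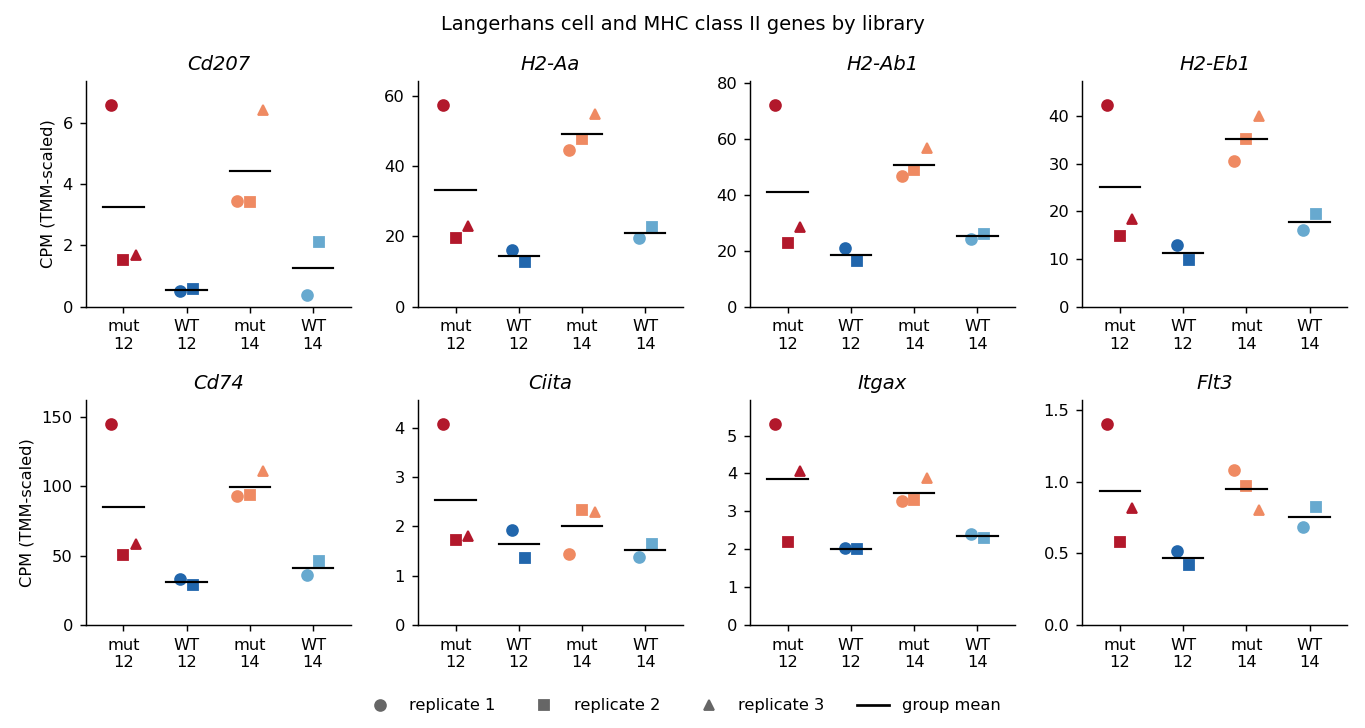
TMM-scaled CPM of each of the 8 genes by library, with mutant (mut) left of wild type (WT) at 12 and 14 dpa; symbols give the replicate number and bars the group mean, and each panel has its own axis from 0. For Cd74 all 6 mutant libraries, at 50.6 to 145 CPM, lie above the 4 wild type libraries, at 28.9 to 46.0 CPM, and mutant 12 dpa replicate 1 is the highest library in all 8 panels.

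The 3 classical class II chains were all higher in mutants over both days. H2-Aa encodes the alpha chain of I-A, H2-Ab1 its beta chain, and H2-Eb1 the beta chain of I-E. H2-Aa stood at 57.3, 19.5 and 23.0 CPM in mutants at 12 dpa, against 16.2 and 12.8 CPM in wild type. Among libraries of 14 dpa the values were 44.5, 47.7 and 54.9 CPM for mutant and 19.6 and 22.5 CPM for wild type. The mutant libraries lay above the wild type libraries of their own day on both days, and only mutant 12 dpa replicate 2 fell within the range of all wild type libraries. Its log2 fold change over both days was 1.21 (SE 0.30, 95% interval 0.53 to 1.89, adjusted p = 0.0116).

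H2-Ab1 reached 72.0, 22.8 and 28.5 CPM in mutant pools of 12 dpa, against 20.8 and 16.2 CPM in wild type pools. At 14 dpa the values were 46.6, 49.0 and 56.6 CPM in the mutant pools and 24.2 and 26.0 CPM in the wild type pools. The groups did not overlap on either day, and the log2 fold change over both days was 1.08 (SE 0.31, adjusted p = 0.0212). H2-Eb1 came to 42.3, 14.9 and 18.4 CPM in the mutant libraries of 12 dpa and to 12.9 and 9.74 CPM in the wild type libraries. The 14 dpa mutant libraries held 30.5, 35.1 and 40.1 CPM, and the wild type libraries of that day 16.0 and 19.4 CPM. Here too the groups of a day did not overlap, and the log2 fold change over both days was 1.07 (SE 0.29, adjusted p = 0.0160). In all 3 genes mutant 12 dpa replicate 1 stood above the other mutant libraries of that day, while the 3 mutant libraries of 14 dpa lay close together.

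The partner of H2-Eb1 and a second E-type beta gene had few counts. H2-Ea, the I-E alpha chain, which is not functional in the haplotype of C57Bl/6 mice, had 2 counts in mutant 12 dpa replicate 3 and 0 counts in each of the other 9 libraries. H2-Eb2, the second beta gene, had 0 to 14 counts in mutants and 6 to 9 counts in wild type. Neither reached the filter on low counts, so neither was tested.

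The promoters of these genes are shown because CIITA acts on a shared module of them, an X box bound by RFX and a Y box bound by NF-Y. RefSeq promoter windows (assembly GRCm38.p6, whereas the deposited tables were made on GRCm39) were found for 5 of the 8 genes, with none for H2-Ab1, Cd74 or Ciita. Letters were searched on both strands of 250 bases before and 50 bases after the start: AGNAAC, the core of the X box, and ATTGG, the Y box, which do not overlap each other in the pair counted, AGNAAC followed by ATTGG with 10 to 40 bases between. Below are the 160 bases before the start, 5′ to 3′ on the gene's strand. Capitals mark the pair where it was found, and ATTGG alone where it was not.
H2-Aa, chr17:34287824-34287983, minus strand: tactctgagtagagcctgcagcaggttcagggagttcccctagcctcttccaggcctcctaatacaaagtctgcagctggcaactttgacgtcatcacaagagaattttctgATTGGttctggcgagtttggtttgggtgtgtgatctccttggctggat
H2-Eb1, chr17:34305707-34305866, plus strand: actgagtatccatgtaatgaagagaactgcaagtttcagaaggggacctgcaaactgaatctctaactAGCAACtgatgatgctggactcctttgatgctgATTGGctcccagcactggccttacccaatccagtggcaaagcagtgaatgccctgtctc
H2-DMb1, chr17:34153031-34153190, plus strand: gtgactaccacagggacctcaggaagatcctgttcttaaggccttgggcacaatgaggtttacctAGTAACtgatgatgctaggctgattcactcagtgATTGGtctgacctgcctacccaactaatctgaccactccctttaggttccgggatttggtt
H2-DMb2, chr17:34145089-34145248, plus strand: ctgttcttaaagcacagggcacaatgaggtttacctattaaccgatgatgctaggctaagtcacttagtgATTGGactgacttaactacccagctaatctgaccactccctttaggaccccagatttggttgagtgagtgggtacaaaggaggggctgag
Cd207, chr6:83677858-83678017, minus strand: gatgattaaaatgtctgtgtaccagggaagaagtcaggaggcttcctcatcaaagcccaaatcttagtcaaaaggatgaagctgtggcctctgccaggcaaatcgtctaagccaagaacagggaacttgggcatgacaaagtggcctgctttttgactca

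H2-Eb1 held the pair, with AGNAAC starting 92 and ATTGG 59 bases before the start and 27 bases between them. H2-DMb1 held it at 95 and 61 bases before the start with 28 bases between. Among class II chain genes the pair was found in 5 of the 8 that have a window (H2-Eb1, H2-Eb2, H2-DMb1, H2-Oa and H2-Ob), and it was found in 1.67% of all 32851 windows. The single motifs are common, at 48.1% of windows for AGNAAC and 37.4% for ATTGG. H2-Aa and H2-DMb2 held ATTGG, starting 48 and 90 bases before the start, without AGNAAC in the letters searched. The printed window of Cd207 held neither. The search took exact letters only. At the matching place H2-DMb2 reads ATTAAC where H2-DMb1 reads AGTAAC, so a window without the pair may still hold an X box. H2-Aa, H2-DMa and H2-DMb2, without the pair, and H2-Eb1, with it, passed the test over both days. H2-DMb1 and H2-Ob, with it, did not, H2-Ob on 5 to 24 counts per library. H2-Oa, also with it, reached the filter on low counts in mutants only, so its test is not used. Whether the pair goes with the genotype difference was not tested.

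Cd74, the invariant chain that occupies the groove of new class II molecules, was the most abundant of the 8 genes in every library. It measured 145, 50.6 and 58.4 CPM in the 12 dpa mutant libraries, against 32.9 and 28.9 CPM in wild type libraries of that day. Among libraries of 14 dpa the values were 93.0, 93.5 and 111 CPM for mutant and 35.8 and 46.0 CPM for wild type. It was the only one of the 8 genes in which every mutant library exceeded every wild type library of either day. The share of all tested genes that do so was not counted. It cannot exceed the 18.0% that separated in this direction within each of the days. Its log2 fold change was 1.37 over both days (SE 0.29, adjusted p = 0.00655).

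Cd74 was also the only gene of the 8 to pass within a single day, against 7.18% of all tested genes called higher at 12 dpa and 16.1% at 14 dpa. Called lower were 9.34% and 17.2%, which makes 16.5% of all tested genes in either direction at 12 dpa and 33.3% at 14 dpa. Its log2 fold change was 1.46 at 12 dpa (SE 0.42, adjusted p = 0.0474) and 1.28 at 14 dpa (SE 0.42, adjusted p = 0.0446). Both p-values lie close to the threshold: the call was lost under 14 of 23 alternatives at 12 dpa and under 12 of 23 at 14 dpa, among them every fit without 1 of the wild type libraries. The log2 fold changes of the 8 genes were 0.62 to 2.56 at 12 dpa and 0.33 to 1.81 at 14 dpa. DESeq2 called 6 of the 8 genes at 12 dpa and 5 at 14 dpa. It also called more of all genes, 4875 and 7749 against 3339 and 6728 by edgeR. In 7 of the 8 genes at 12 dpa, and in 6 at 14 dpa, every mutant library lay above every wild type library of the same day, as in 25.7% and 30.8% of all tested genes. The 6 genes for which this was so on both days compare with 18.0% of all tested genes, and a further 19.3% had every mutant library below every wild type library on both days.

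**Figure D2:**
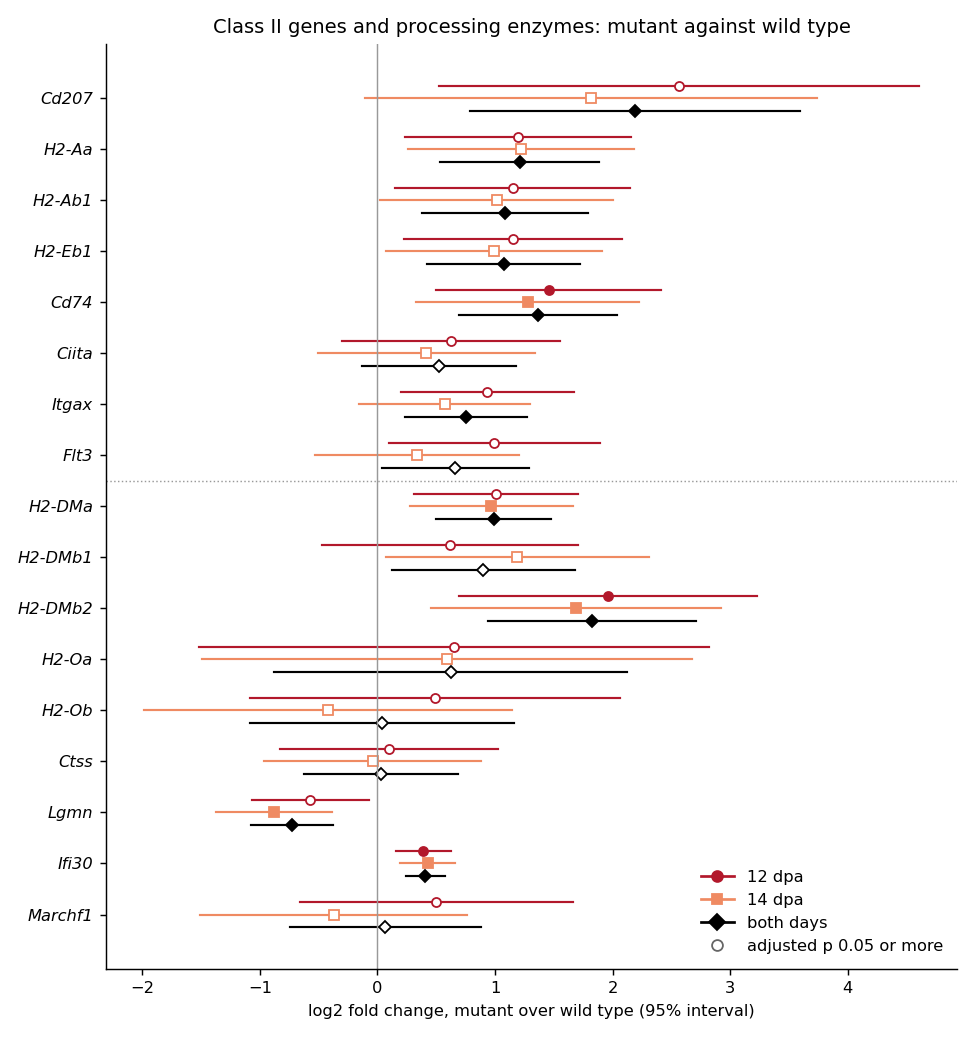
Log2 fold change of mutant over wild type with its 95% interval for the 8 genes, above the dotted line, and for the other class II loading and processing genes tested, below it, at 12 dpa, 14 dpa and over both days; filled symbols passed at adjusted p under 0.05. Cd74 is filled in all 3 contrasts, H2-DMb2 and Ifi30 likewise, and Lgmn lies left of 0 with a log2 fold change of -0.73 over both days. H2-Oa, which reached the filter on low counts in mutants only, is drawn too.

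Of 11 other loading and processing genes 9 were tested, and 8 of these reached the filter on low counts in both genotypes. Among those, 3 were higher in mutants, 1 was lower and 4 did not pass, a share near the 43.7% of all tested genes called in either direction, and their median log2 fold change was 0.24. H2-Oa reached the filter in mutants only. H2-DMa and H2-DMb2 encode chains of H2-DM, the editor that swaps the invariant chain remnant for peptide. H2-DMa stood at 6.99, 3.54 and 3.55 CPM in mutants and 2.44 and 2.23 CPM in wild type at 12 dpa, and at 5.89, 6.88 and 7.25 CPM in mutants and 2.99 and 3.82 CPM in wild type at 14 dpa. Its log2 fold change was 0.99 (SE 0.22, adjusted p = 0.00600). H2-DMb2 had a log2 fold change of 1.82 (SE 0.39, adjusted p = 0.00543), with 1.06 to 3.66 CPM in the 6 mutant libraries and 0.436 to 1.01 CPM in the 4 wild type libraries. Its neighbour H2-DMb1, a near copy with which reads may be shared, had a log2 fold change of 0.90 (SE 0.35, adjusted p = 0.0601).

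Ifi30, the lysosomal thiol reductase that opens disulphide bonds of antigens, was higher by a small and regular margin, at 49.3 ± 4.39 CPM in 6 mutant and 37.2 ± 3.26 CPM in 4 wild type libraries (SD). That gave a log2 fold change of 0.41 (SE 0.07, adjusted p = 0.00237). Lgmn, the asparagine endopeptidase that starts invariant chain cleavage and is abundant in macrophages, was lower, at 23.7 ± 5.50 CPM in mutant and 39.2 ± 4.48 CPM in wild type libraries (SD, n = 6 and 4), with adjusted p = 0.00529. Ctss, the protease that finishes that cleavage, had a log2 fold change of 0.03 (95% interval -0.63 to 0.68, adjusted p = 0.946). Marchf1, which marks class II for turnover, had a log2 fold change of 0.06 (SE 0.36, adjusted p = 0.900). H2-Oa and H2-Ob, chains of the H2-DM inhibitor found mainly in B cells, had 1 to 24 counts per library. H2-Ob did not pass (adjusted p = 0.961), and the test of H2-Oa is not used.

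Ciita, the co-activator, had the smallest log2 fold change of the 8 genes. It reached 4.09, 1.73 and 1.80 CPM in mutant pools of 12 dpa, against 1.93 and 1.36 CPM in wild type pools. At 14 dpa the values were 1.43, 2.34 and 2.29 CPM in the mutant pools and 1.39 and 1.64 CPM in the wild type pools. The groups overlapped on both days, with counts of 95 to 363 per library. The log2 fold change over both days was 0.52 (SE 0.29, 95% interval -0.14 to 1.18, adjusted p = 0.174), an interval that holds both 0 and 1. Whether Ciita differed from the class II chains in its response was not tested.

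Upstream of Ciita, interferon gamma was close to undetected. Ifng had 3 counts in mutant 12 dpa replicate 1, 2 counts in mutant 14 dpa replicate 2, and 0 counts in the other 8 libraries. Of the 7 tested genes of its pathway, 3 were higher in mutants and 4 did not pass, with a median log2 fold change of 0.12. That share is near the 43.7% of all tested genes called in either direction, with 21.5% higher. Those higher were the receptor chains Ifngr1, at 0.68 (SE 0.11, adjusted p = 0.00134), and Ifngr2, at 0.36 (SE 0.08, adjusted p = 0.00766), and the kinase Jak1, at 0.41 (SE 0.09, adjusted p = 0.00503). Irf1, a transcription factor that carries the signal to the Ciita promoter, did not pass, at 2.74 ± 1.14 CPM in mutant and 3.67 ± 0.434 CPM in wild type libraries (SD, n = 6 and 4).

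Among 7 factors that bind the class II promoter, 3 were higher, 1 was lower and 3 did not pass, where 43.7% of all tested genes were called in either direction. Their median log2 fold change was 0.25. Rfxap, a subunit of the RFX complex, was higher, with a log2 fold change of 0.62 (SE 0.09, adjusted p = 0.000697), with 9.38 to 10.6 CPM in mutant and 5.84 to 7.63 CPM in wild type libraries. The NF-Y subunits Nfyb and Nfyc were higher by 0.36 (SE 0.09, adjusted p = 0.00806) and 0.29 (SE 0.08, adjusted p = 0.0202). Rfx5, the DNA-binding RFX subunit, was lower, at -0.27 (SE 0.10, adjusted p = 0.0435).

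Of 10 genes of MHC class I presentation, which nearly all cells use, 3 were higher and 7 did not pass, where 21.5% of all tested genes were higher and 43.7% were called in either direction. Their median log2 fold change was 0.23. The peptide trimmer Erap1 (0.46, SE 0.08, adjusted p = 0.00150), the peptide transporter subunit Tap1 (0.58, SE 0.11, adjusted p = 0.00347) and tapasin, Tapbp (0.42, SE 0.09, adjusted p = 0.00592), were higher. The heavy chain gene H2-D1 had a log2 fold change of 0.67 (SE 0.28, adjusted p = 0.0793), with 80.9 to 177 CPM in mutant and 37.5 to 115 CPM in wild type libraries.

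Cd207 showed the largest log2 fold change of the 8 genes and the largest standard error. It came to 6.59, 1.52 and 1.69 CPM in the mutant libraries of 12 dpa and to 0.518 and 0.585 CPM in the wild type libraries. The 14 dpa mutant libraries held 3.45, 3.42 and 6.43 CPM, and the wild type libraries of that day 0.365 and 2.13 CPM. The groups of each day did not overlap, but wild type 14 dpa replicate 2 lay above 2 of the 3 mutant libraries of 12 dpa. The counts behind these values were 118 to 585 in mutant and 25 to 206 in wild type libraries. The log2 fold change over both days was 2.19 (SE 0.62, 95% interval 0.79 to 3.59, adjusted p = 0.0198). Within a day it did not pass, at 2.56 at 12 dpa (SE 0.90, adjusted p = 0.0820) and 1.81 at 14 dpa (SE 0.84, adjusted p = 0.126). Without wild type 14 dpa replicate 2 the value over both days was 3.05. The call was lost under 6 of 22 alternatives, and the adjusted p ranged up to 0.121.

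Of 16 genes listed for Langerhans cell identity and support, 5 were higher, 2 were lower and 9 did not pass, a share near the 43.7% of all tested genes called in either direction. Their median log2 fold change was 0.17. Il34, the keratinocyte cytokine that maintains Langerhans cells, measured 18.2, 9.68 and 7.55 CPM in the 12 dpa mutant libraries, against 3.54 and 3.23 CPM in wild type libraries of that day. Among libraries of 14 dpa the values were 6.73, 8.02 and 6.57 CPM for mutant and 4.23 and 5.43 CPM for wild type. Every mutant library exceeded every wild type library, and the log2 fold change over both days was 1.18 (SE 0.24, adjusted p = 0.00383).

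Epcam, an adhesion molecule of Langerhans cells and of epithelium, was higher by 1.23 (SE 0.12, adjusted p = 0.000127), at 92.6 ± 20.0 CPM in mutant and 40.7 ± 15.5 CPM in wild type libraries (SD, n = 6 and 4). Cdh1, which encodes E-cadherin, was higher by 0.65 (SE 0.12, adjusted p = 0.00256). Cd24a was higher by 0.82 (SE 0.18, adjusted p = 0.00585), and Itgb6, a chain of the integrin that activates latent TGF-beta, by 0.59 (SE 0.13, adjusted p = 0.00542). Tgfb1 was lower by 0.56 on the log2 scale, with a log2 fold change of -0.56 (SE 0.10, adjusted p = 0.00239). Runx3, a transcription factor needed for Langerhans cells to develop in mice, was also lower, at -0.73 (SE 0.18, adjusted p = 0.00910). Ly75, the endocytic receptor DEC-205, had a log2 fold change of 0.32 (SE 0.20, adjusted p = 0.222), and Csf1r, the receptor for IL-34, of 0.21 (SE 0.34, adjusted p = 0.645).

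Keratinocyte genes were also higher in part. Of 8 keratinocyte genes 5 were higher in mutants, 1 was lower and 2 did not pass, with a median log2 fold change of 0.79 and none at 0 counts in all libraries. Over all tested genes 21.5% were higher and 22.2% lower. Krt14, the basal keratin, stood at 8332 ± 1217 CPM in mutant and 4030.2 ± 499 CPM in wild type libraries (SD, n = 6 and 4), and its log2 fold change of 1.05 (SE 0.15, adjusted p = 0.000720) was close to those of the class II chains. Other keratinocyte genes differed from it. Krt5 was higher by 1.32 (SE 0.13, adjusted p = 0.000123) and Trp63 by 0.54 (SE 0.10, adjusted p = 0.00304). Itga6 was lower, at -0.52 (SE 0.10, adjusted p = 0.00314). The summed keratinocyte list was 51609 to 115950 CPM in mutants against 29646 to 51897 CPM in wild type. Set against Krt14 in the same library, the ratio of H2-Ab1 TPM to Krt14 TPM was 0.00330 to 0.0133 in mutants and 0.00586 to 0.0119 in wild type, so the groups overlapped. This holds for Krt14 alone, since ratios to other keratinocyte genes were not taken. The ratios to Krt14 of the other 7 genes overlapped on both days too, with 2 exceptions. At 12 dpa the ratio of Cd207 was higher in every mutant library, and at 14 dpa the ratio of Flt3, at 4.24e-05 to 5.90e-05 in mutants and 7.05e-05 and 0.000103 in wild type, was lower in every mutant library. Fibroblast genes went the other way, with 4 of 6 lower, 2 not passing and a median log2 fold change of -1.26. Their part in the results on the 8 genes was not tested.

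Itgax and Flt3 are carried by dendritic cells more broadly. Itgax, which encodes the integrin CD11c, stood at 5.31, 2.18 and 4.06 CPM in mutants and 2.03 and 2.00 CPM in wild type at 12 dpa. At 14 dpa the values were 3.27, 3.29 and 3.89 CPM in the mutant pools and 2.39 and 2.29 CPM in the wild type pools. The groups of each day did not overlap, though mutant 12 dpa replicate 2 lay below both wild type libraries of 14 dpa. The log2 fold change was 0.75 over both days (SE 0.23, adjusted p = 0.0248), the smallest among the 6 genes that passed. Its call was lost under 9 of 22 alternatives.

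Flt3, the receptor tyrosine kinase of dendritic cell precursors and conventional dendritic cells, had 31 to 125 counts per library. It reached 1.41, 0.582 and 0.817 CPM in mutant pools of 12 dpa, against 0.518 and 0.422 CPM in wild type pools, with no overlap. The 14 dpa mutant libraries held 1.08, 0.974 and 0.805 CPM, and the wild type libraries of that day 0.686 and 0.825 CPM, with overlap. The log2 fold change was 0.66 over both days (SE 0.28, 95% interval 0.04 to 1.29, adjusted p = 0.0792). Its ligand gene, Flt3l, had 6 to 29 counts in mutant and 0 to 7 counts in wild type libraries and reached the filter in mutants only, so its test is not used.

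Of 13 tested genes of conventional dendritic cells, 11 reached the filter in both genotypes. Of the 11, 2 were higher, 2 were lower and 7 did not pass, no more than the 43.7% of all tested genes called in either direction, and their median log2 fold change was -0.41. Zbtb46, a transcription factor of conventional dendritic cells and of endothelium, came to 1.26, 0.750 and 0.951 CPM in the mutant libraries of 12 dpa and to 2.45 and 1.78 CPM in the wild type libraries. Among libraries of 14 dpa the values were 0.573, 1.02 and 0.819 CPM for mutant and 2.95 and 1.99 CPM for wild type. It was lower in every mutant library, at -1.35 (SE 0.24, adjusted p = 0.00214). Cd1d1, which presents lipids, was lower too (-0.95, SE 0.26, adjusted p = 0.0145). Xcr1, a receptor of cross-presenting dendritic cells, had 0 to 2 counts in mutant and 1 to 17 counts in wild type libraries and reached the filter in wild type only, so its test is not used. Irf4, a factor of the CD11b+ branch, was higher by 1.86 (SE 0.41, adjusted p = 0.00564) on 14 to 44 counts in mutant and 4 to 15 counts in wild type libraries. Naaa, an acid amidase, was higher by 0.71 (SE 0.11, adjusted p = 0.00126). The cross-presenting cell markers Clec9a and Batf3 had 0 to 8 counts in any library and were not tested.

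Of 11 tested genes of dendritic cell maturation and migration, 9 reached the filter in both genotypes. Of the 9, 3 were higher, 2 were lower and 4 did not pass, where 43.7% of all tested genes were called in either direction, and their median log2 fold change was 0.31. Ccl22, a chemokine of activated dendritic cells and Langerhans cells, measured 3.25, 3.32 and 1.43 CPM in the 12 dpa mutant libraries, against 0.313 and 0.367 CPM in wild type libraries of that day. At 14 dpa the values were 0.846, 1.28 and 5.76 CPM in the mutant pools and 0.160 and 0.691 CPM in the wild type pools. All 6 mutant libraries exceeded all 4 wild type libraries, with a log2 fold change of 2.78 (SE 0.68, adjusted p = 0.0107). Ccl17, its relative, had 1 to 26 counts in mutant and 2 to 5 counts in wild type libraries and reached the filter in mutants only, so its test is not used. Ccl20, the chemokine that draws CCR6+ cells, was higher (1.98, SE 0.53, adjusted p = 0.0137), as was Relb, an NF-kappaB subunit (0.59, SE 0.14, adjusted p = 0.00892). Lower were Fscn1, the actin bundler fascin (-1.20, SE 0.17, adjusted p = 0.000798), and Cd40, the receptor for T cell help (-1.28, SE 0.27, adjusted p = 0.00488). The homing receptor Ccr7, with 7 to 67 counts, had a log2 fold change of 0.92 (SE 0.57, adjusted p = 0.218).

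**Figure D3:**
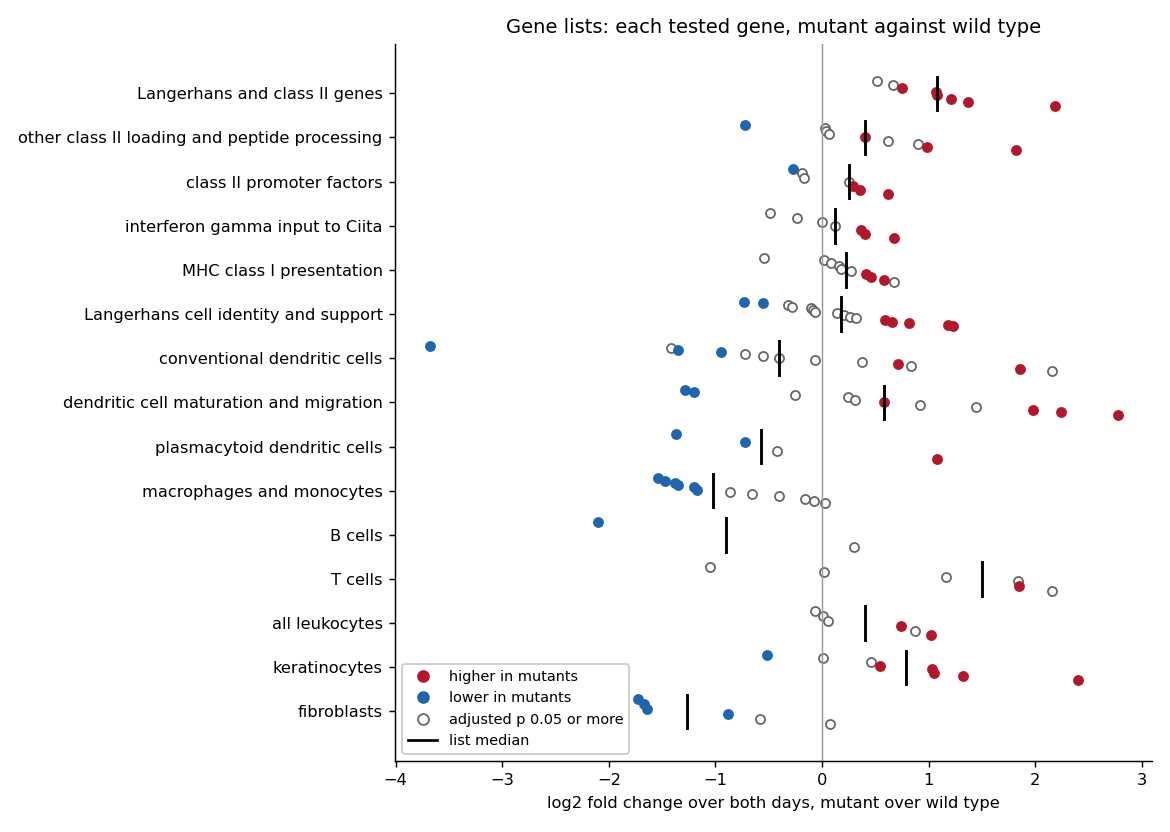
Log2 fold change over both days, mutant over wild type, of each tested gene (1 point a gene) in the 15 gene lists, with a bar for the list median; red points were higher and blue points lower in mutants at adjusted p under 0.05. Drawn and included in the medians are 9 genes that reached the filter on low counts in 1 genotype only. The 8 genes, in the top row, all lie right of 0 with a median of 1.08, while the macrophage and monocyte list has its median at -1.02.

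Genes listed for other cells that can carry class II were counted next. A listed gene need not be limited to those cells, and whether Langerhans cells contribute to its RNA here was not tested. Of 12 macrophage and monocyte genes 6 were lower in mutants and 6 did not pass, with a median log2 fold change of -1.02 and none at 0 counts in all libraries. Over all tested genes 22.2% were lower and 43.7% were called in either direction. Adgre1, which encodes F4/80, stood at 0.788, 0.995 and 1.33 CPM in mutants and 2.53 and 2.76 CPM in wild type at 12 dpa. The 14 dpa mutant libraries held 0.729, 1.86 and 1.21 CPM, and the wild type libraries of that day 4.25 and 2.53 CPM. Its log2 fold change was -1.38 (SE 0.28, adjusted p = 0.00389), and those of the mannose receptor gene Mrc1 and of the complement gene C1qb were -1.48 (SE 0.34, adjusted p = 0.00820) and -1.54 (SE 0.36, adjusted p = 0.00844). The summed list was 26.6 to 78.7 CPM in mutants and 82.4 to 114 CPM in wild type. With the doubtful 14 dpa libraries left out, mutant 14 dpa replicate 1 and wild type 14 dpa replicate 1, 4 of the 12 were lower.

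Genes of B cells, which also express class II, were scarce. Ms4a1 had 0 to 5 counts and Cd79a 0 to 6 counts in any library, and 2 of the 6 genes in the list were tested. The list summed to 0.361 to 0.776 CPM in mutants and 0.422 to 0.660 CPM in wild type. Cd22 had 1 to 12 counts in mutant and 8 to 21 counts in wild type libraries and reached the filter in wild type only, so its test is not used. Of 4 tested genes listed for plasmacytoid dendritic cells, Tcf4 (-0.72, SE 0.12, adjusted p = 0.00143) and Bst2 (-1.37, SE 0.35, adjusted p = 0.0121) were lower and Ccr9 (1.07, SE 0.21, adjusted p = 0.00302) was higher, while Siglech, the defining marker, had a log2 fold change of -0.42 (SE 0.88, adjusted p = 0.722). Over all tested genes 43.7% were called in either direction. T cell genes were sparse, summing to 0.892 to 2.64 CPM in mutants and 0.925 to 2.12 CPM in wild type. Of 6 tested, 3 reached the filter in both genotypes and did not pass, Cd3e among them (1.16, SE 0.44, adjusted p = 0.0539). The other 3 reached it in mutants only, Cd3g among them, with 5 to 22 counts in mutant and 1 to 5 counts in wild type libraries.

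Among 6 genes shared by all leukocytes, Cd52 (1.02, SE 0.31, adjusted p = 0.0246) and Coro1a (0.74, SE 0.25, adjusted p = 0.0383) were higher and 4 did not pass, where 43.7% of all tested genes were called in either direction. Ptprc, which encodes CD45, stood at 6.50, 3.84 and 16.0 CPM in mutants and 7.10 and 5.14 CPM in wild type at 12 dpa. Among libraries of 14 dpa the values were 4.31, 5.71 and 5.16 CPM for mutant and 7.48 and 6.78 CPM for wild type. The genotype log2 fold change of Ptprc was 0.01 (SE 0.35, adjusted p = 0.979). Without mutant 12 dpa replicate 3, the high library, 1 leukocyte gene was called higher, and 6 of the 8 genes described here passed, as with it.

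Ratios within a library set the class II genes beside these cell markers, free of the scaling between libraries. Per unit of Ptprc TPM, H2-Ab1 stood at 50.0, 24.2 and 7.83 in the mutant libraries of 12 dpa, against 12.6 and 13.8 in the wild type libraries. At 14 dpa the ratio of H2-Ab1 to Ptprc stood at 46.9, 38.4 and 48.2 in mutants and 12.6 and 16.1 in wild type. In each of the 8 genes 5 of the 6 mutant libraries had a higher ratio to Ptprc than all 4 wild type libraries, and the exception each time was mutant 12 dpa replicate 3, with its high Ptprc. Per unit of Adgre1 TPM, all 6 mutant libraries exceeded all 4 wild type libraries for all 8 genes. Adgre1 was itself lower in mutants, with a log2 fold change of -1.38, which by itself raises any ratio to it there. Ciita, which did not pass the test, separated in this ratio too. The share of all tested genes that would separate in ratios to Ptprc or Adgre1 was not counted. For Cd74 the ratio to Adgre1 was 110 to 366 in mutants and 15.8 to 43.3 in wild type.

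**Figure D4:**
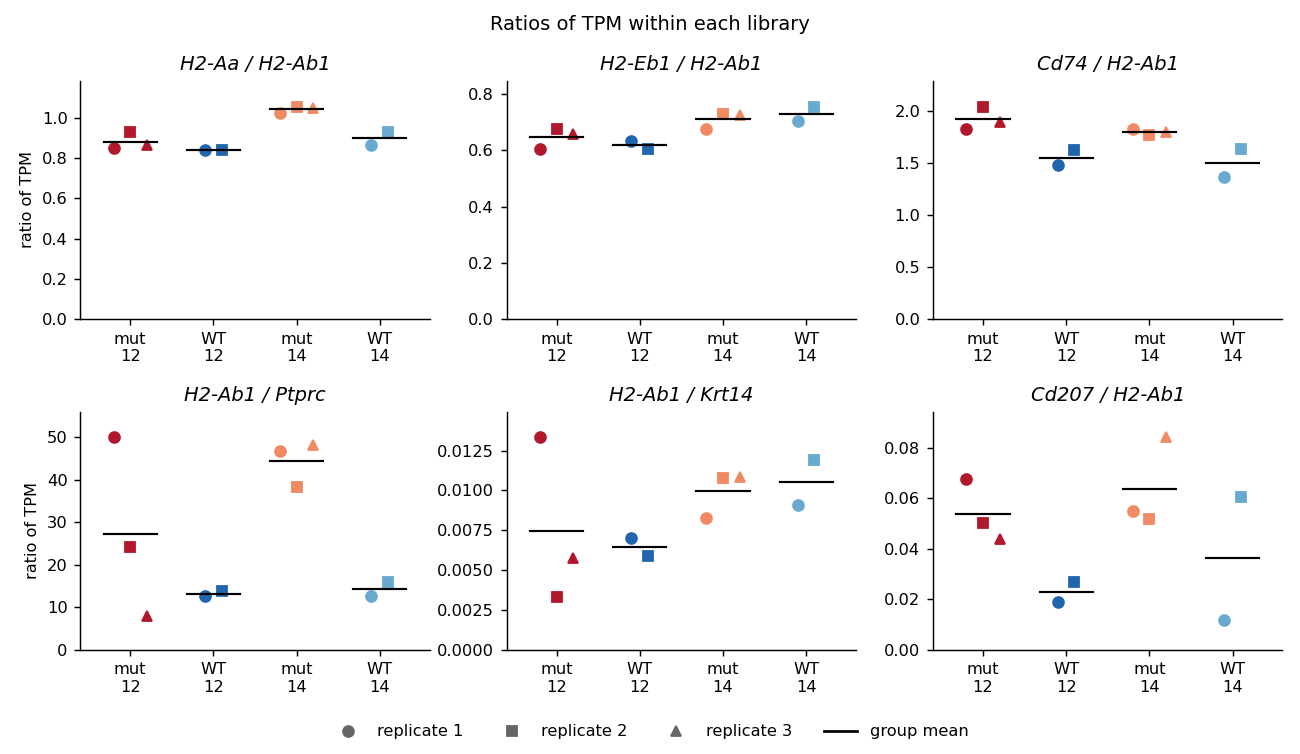
Ratios of TPM within each library, with mutant (mut) left of wild type (WT) at 12 and 14 dpa; points are libraries, symbols replicate numbers, bars group means, and every axis starts at 0. The ratio of Cd74 to H2-Ab1 separates the 6 mutant libraries, at 1.76 to 2.04, from the 4 wild type libraries, at 1.36 to 1.63, whereas the ratio of H2-Ab1 to Krt14 overlaps.

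The proportions of the class II genes to each other varied less than their levels. H2-Aa stood at 0.850 to 1.06 per unit of H2-Ab1 in mutants and 0.840 to 0.931 in wild type, a coefficient of variation of 9.55% over the 10 libraries, and the mutant libraries lay above the wild type libraries on both days. At 12 dpa the ratios of H2-Aa to H2-Ab1 were 0.850 to 0.931 in mutants against 0.840 and 0.843 in wild type, and at 14 dpa they were 1.03 to 1.06 in mutants against 0.867 and 0.931 in wild type. H2-Eb1 stood at 0.605 to 0.731 per unit of H2-Ab1 in mutants and 0.604 to 0.756 in wild type, a coefficient of variation of 7.77%. Cd74 also separated the genotypes, with a coefficient of variation of 11.7%: per unit of H2-Ab1 it stood at 1.83, 2.04 and 1.89 in the mutant libraries of 12 dpa, against 1.48 and 1.62 in the wild type libraries. At 14 dpa it stood at 1.83, 1.76 and 1.80 in the mutant libraries, against 1.36 and 1.63 in the wild type libraries. Cd207 was the loosest, at 0.0440 to 0.0841 per unit of H2-Ab1 in mutants and 0.0116 to 0.0607 in wild type, with overlap at 14 dpa. These ratios rest on TPM, which divides by gene length, and they were not tested.

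Ordered by TPM, Cd74 came first and Flt3 last in all 10 libraries. In mutant 12 dpa replicate 1 the levels were 119.5 TPM for Cd74, 65.5 for H2-Ab1, 55.6 for H2-Aa, 39.6 for H2-Eb1, 4.42 for Cd207, 1.24 for Itgax, 0.740 for Ciita and 0.350 for Flt3. H2-Ab1 was second in 7 libraries and H2-Aa in the 3 mutant libraries of 14 dpa, where they differed least, so the order of these neighbours changed with the library. Cd207 ranked next after the class II genes, above Itgax and Ciita, in all 6 mutant libraries and in wild type 14 dpa replicate 2. In the other 3 wild type libraries Itgax ranked above Cd207, and all 4 of Cd207, Itgax, Ciita and Flt3 stayed under 0.5 TPM there.

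**Figure D5:**
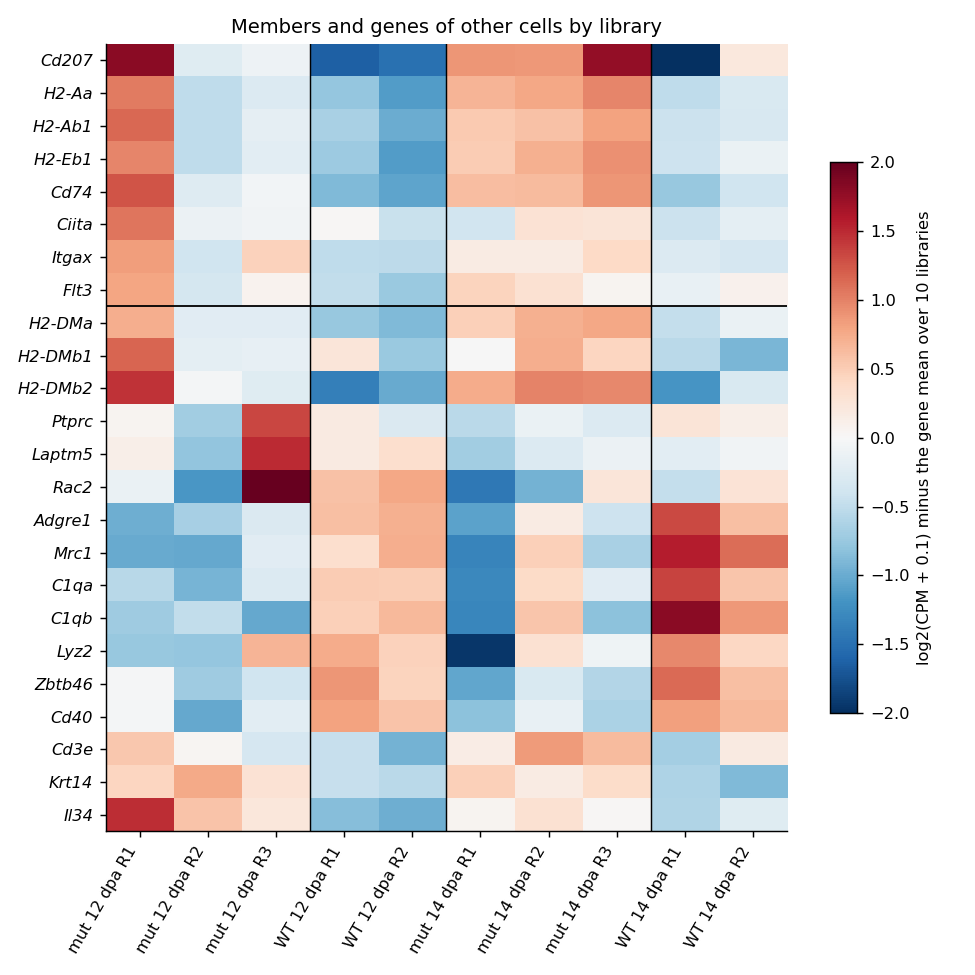
Level of genes in each library, as log2(CPM + 0.1) minus the gene's mean over the 10 libraries. The 8 genes are above the line, and H2-DMa, H2-DMb1, H2-DMb2 and genes of other cells are below it. Columns run mutant then wild type within each day, and colours stop at 2 in either direction. Above the line, the class II genes and Cd207 are red in mutant 12 dpa replicate 1 and in the mutant 14 dpa libraries. The exception is Ciita in mutant 14 dpa replicate 1. Ptprc, Laptm5 and Rac2 are reddest in mutant 12 dpa replicate 3.

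Within the mutants of 12 dpa the 8 genes ranked the libraries alike. Replicate 1 was the highest of all 10 libraries in all 8 genes, and replicate 2 was the lowest of its group in all 8. How many of all tested genes rank these libraries in the same way was not counted. Summed, the 8 genes reached 114 to 334 CPM in mutants and 72.1 to 87.7 CPM in wild type at 12 dpa, and 224 to 276 CPM in mutants and 100.4 to 121 CPM in wild type at 14 dpa. Leaving out mutant 12 dpa replicate 1 left 6 genes called over both days, with a median log2 fold change of 0.75.

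No difference between the days passed for these genes. The difference between the genotype effects of 14 and 12 dpa was called in 0 of the 8 genes by edgeR, with 0 at an unadjusted p under 0.05 and 0 by DESeq2. Over all genes edgeR called 0.00% for that difference, with 1763 genes at an unadjusted p under 0.05 and 48 called by DESeq2. The intervals are wide: for Cd74 the difference was -0.18 on the log2 scale (95% interval -1.46 to 1.10), and for Cd207 it was -0.75 (95% interval -3.36 to 1.86).

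Between 14 and 12 dpa itself, 0 of the 8 genes were called in mutants or in wild type, with 0 at an unadjusted p under 0.05 and 0 by DESeq2 in either. edgeR called 0.0346% of all genes in mutants (0.0148% higher and 0.0198% lower at 14 dpa) and 0.00% in wild type. H2-Aa averaged 49.0 ± 5.34 CPM at 14 dpa and 33.3 ± 20.9 CPM at 12 dpa in mutants (SD, n = 3 each), a log2 difference of 0.56 (95% interval -0.27 to 1.38). Without mutant 12 dpa replicate 1 that difference was 1.19 and was called, with adjusted p = 0.0460. In wild type H2-Aa averaged 21.1 ± 2.11 CPM at 14 dpa and 14.5 ± 2.43 CPM at 12 dpa (SD, n = 2 each), a log2 difference of 0.54 (95% interval -0.48 to 1.55).

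The genes whose levels ran most like H2-Ab1 over the 10 libraries, among 11428 protein-coding genes with a mean of at least 1 TPM, were H2-Aa (Pearson r of log2(CPM + 1) of 0.991), H2-Eb1 (0.989), Cd74 (0.980), the phosphatase gene Acp1 (0.970) and H2-DMa (0.968). With each group's mean subtracted, H2-Aa (0.997), H2-Eb1 (0.989) and Cd74 (0.983) led again, followed by Ccndbp1 (0.971) and Snx5 (0.968). For Cd207 the closest were Cd74 (0.962), H2-DMb2 (0.961), H2-DMa (0.949), Mrpl30 (0.942) and Rfc4 (0.938). With group means subtracted the closest to Cd207 were Pms2 (0.970), Pex10 (0.967), Lamp2 (0.966), Mgat5b (0.961) and l7Rn6 (0.960), none of them a class II gene.

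Itgax and Flt3 ran with other genes. The closest to Itgax was Stoml2 (0.974), then 3010026O09Rik (0.945), Fancl (0.940), Ybx1 (0.935) and Lsm3 (0.931). The closest to Flt3 was Ccdc115 (0.950), then Stoml2 (0.922), Aaed1 (0.921), Naa38 (0.913) and Cdkn2aipnl (0.903). With group means subtracted the closest to Flt3 included Alox5 (0.983), a lipoxygenase gene of leukocytes, and Cytip (0.970), an adaptor of lymphoid and dendritic cells. These correlations describe 10 libraries that share the genotype and day groups, and no p is given for them.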

How the data were processed

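RNA was extracted with RNeasy Plus Mini columns and sequenced with the Illumina stranded total RNA kit, per the labels' protocols. The expected counts and TPM per gene were deposited by the authors, and STAR 2.7.8a, RSEM 1.3.0, FastQC and the GRCm39 build are named, without roles, in the submitters' processing notes. TPM is already scaled within each library. Of the expected counts 13.9% were not whole, and all were rounded before testing. Genes passed filterByExpr (minimum count 10, minimum total 15), and 20216 of 55416 IDs were tested. A list gene is said to reach this filter in a genotype where at least 2 of its libraries do; list counts leave out genes that reached it in 1 genotype only. Library sizes were scaled by TMM in edgeR 4.0.16 (R 4.3.3), and quasi-likelihood tests were fitted to all 10 libraries in 4 genotype and day groups. Every adjusted p in the text is from edgeR with Benjamini-Hochberg adjustment over all tested genes, unless another tool is named. The common dispersion corresponds to a biological coefficient of variation of 0.277. The scripts were tested on simulated data. DESeq2 1.42.0 and limma 3.58.1 gave alternatives.

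The 8 genes, the other lists and the alternatives were chosen with earlier results of these data known. By the naming rule, the text names all 8 genes, every class II loading gene, up to 4 genes with the smallest adjusted p over both days from each other list, the first gene of each cell type list, and the 5 genes closest in correlation. Other list genes named (Irf1, Ifng, Cd24a, Itgb6, Runx3, Ly75, Csf1r, Xcr1, Flt3l, Clec9a, Batf3, Ccl17, Ccl20, Ccr7, Ms4a1, Cd79a, Siglech and Cd3e among them) were chosen after their values were seen. Intervals and counts near 0 cover the spread between libraries or counting error only. Correlations used genes with a mean of at least 1 TPM. Some genes of these lists are not reported here by name.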

Additional observations from a re-analysis of the deposited data

How the results depend on the processing

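Every genotype log2 fold change of the 8 genes stayed above 0 under all alternatives, which refit the same libraries, but the number of genes called did not hold. Over both days 6 genes were called. Without 1 library at a time the count was 1 to 7, with 3 without wild type 14 dpa replicate 1 and 1 without wild type 12 dpa replicate 2. It was 3 with no filter on low counts, 0 with the library tagged wild type placed in wild type, and 0 without both doubtful 14 dpa libraries (mutant replicate 1 and wild type replicate 1), an alternative chosen after seeing the data under which 6179 of all genes were called. Other settings gave 4 to 7, among them DESeq2 with 6 and limma on TPM with 7.

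At 12 dpa, where 1 gene was called, the count was 6 with DESeq2, 4 with limma on log2(TPM + 1) and 4 on log2(TPM + 0.1). Of all genes these settings called 4875, 4362 and 4111, against 3339. It was 0 with upper quartile factors, no filter, the tagged library in wild type, the compared groups only, or the doubtful libraries left out, and 0 to 5 without 1 library. At 14 dpa, where 1 gene was called, the count was 5 with DESeq2, 4 with limma on either TPM scale and 4 with the compared groups only. Of all genes DESeq2 called 7749, limma 5518 and 6046, and the compared groups 5013, against 6728. It was 0 with upper quartile factors, no filter, the tagged library in wild type, or the doubtful libraries left out, and 0 to 4 without 1 library. The cause was not tested.

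Of all genes, 3339 were called at 12 dpa, 769 to 3947 without 1 library, and 1927 and 1921 with the replicate block by title and by description numbers. At 14 dpa 6728 were called, 2548 to 6517 without 1 library and 1520 without both doubtful libraries. DESeq2 called 1505 between days in mutants against 7 by edgeR, 77 against 0 in wild type, and 48 against 0 for the genotype difference between days. The median of all genes over both days moved to 0.14 on log2(TPM + 1) and 0.26 on log2(TPM + 0.1), against 0.02.

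The replicate numbers gave no clear sign of pairing. The 13 same-numbered pairs had correlations of deviations from -0.197 to 0.176, 3 of them over 0.1, and 5 of 10 libraries correlated best with their own number. In a group of 2 libraries the deviations from the group mean mirror each other. The value of 0.173 between the wild type groups of 12 and 14 dpa is therefore counted under replicates 1 and 2. The pairs are not independent, so they cannot settle whether samples were paired. With the replicate block 4 of the 8 genes were called over both days (5 by description numbers), 0 at 12 dpa under either numbering, and 0 at 14 dpa (1 by description numbers).

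No value that changed sign passed under the alternative that changed it. The H2-Aa difference between days, 0.02, became -0.063 with upper quartile factors, -0.010 with no filter, -0.047 with the strict filter, -0.0058 with protein-coding genes only, -0.37 with the tagged library in wild type, -0.010 without both doubtful libraries, and -0.29 to 0.63 without 1 library. For Ciita that difference became 0.013 with the tagged library in wild type and ranged from -0.48 to 0.28 without 1 library. Without 1 library it ranged from -1.51 to 0.99 for Cd207, -0.46 to 0.51 for H2-Ab1, -0.47 to 0.40 for H2-Eb1 and -0.48 to 0.42 for Cd74. The day difference in mutants became -0.015 for Cd74 on log2(TPM + 1) and -0.014 on log2(TPM + 0.1). For Flt3 it became -0.061 and -0.21 on the TPM scales, -0.072 with the tagged library in wild type and -0.072 without both doubtful libraries. Without 1 library it ranged from -0.051 to 0.85 for Cd74, -0.23 to 0.43 for Flt3, -0.55 to 0.18 for Ciita and -0.44 to 0.14 for Itgax. In wild type the day difference of Itgax became -0.025 and -0.069 on the TPM scales, and without 1 library it ranged from -0.36 to 0.15 for Ciita and -0.54 to 1.94 for Cd207. Between days in mutants 0 genes of the 8 were called, and 0 to 1 without 1 library. Among the 8 genes, counts reached lowest in Flt3 and in wild type Cd207, at 31 to 125 and 25 to 206 per library. What limited their calls was not tested.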
